A study of Mus musculus with 19 samples.

Results

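The Polycomb repressor genes were measured in MII oocytes, which are arrested in the second meiotic metaphase, and in 2cell embryos from female mice labelled Het or KO for CPEB3, a protein that binds the 3′UTR of mRNAs. The members are the 10 genes *Ezh1*, *Ezh2*, *Eed*, *Suz12*, *Jarid2*, *Rnf2*, *Ring1*, *Bmi1*, *Pcgf1* and *Pcgf6*, taken by symbol from the 25889 genes of the deposited table, where all 10 were found. The 19 libraries are labelled as 5 Het and 5 KO libraries of MII oocytes and 5 Het and 4 KO libraries of 2cell embryos. Het stands for CPEB3+/- and KO for CPEB3-/-. The females were BL6 mice of 6 to 10 weeks that had all received 5 IU of PMSG and 5 IU of hCG, and the embryos were collected 37 h after hCG, following culture of the zygotes. According to the methods, KO females carried CPEB3 LoxP/LoxP and ZP3 Cre+/-, a Cre recombinase that is driven by an oocyte promoter. The study names wild-type males for its fertility and development experiments, while its methods do not give the genotype of the males. A KO embryo came from an oocyte of a KO female and may carry a paternal allele. The study describes CPEB3 protein in KO oocytes as reduced and not absent. The full alleles of the sequenced Het females were not given in the sources used here. Each library was made from a pool of cells, so fewer contributing cells and less RNA per cell cannot be told apart.

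Polycomb proteins keep genes silent through marks on histones. Polycomb repressive complex 2 (PRC2) places H3K27me3 through the methyltransferase Ezh2 or its paralog Ezh1, held together by Eed and Suz12, and Jarid2 guides it to chromatin. Polycomb repressive complex 1 (PRC1) attaches ubiquitin to histone H2A through the ligase Rnf2 or its paralog Ring1, joined to a Pcgf protein that sets the kind of PRC1. Bmi1 belongs to the canonical kind, Pcgf1 to a variant with Kdm2b and Bcor, and Pcgf6 to a variant with Mga and L3mbtl2. In the mouse, oocyte H3K27me3 is passed to the embryo, where it silences a set of maternal alleles.

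CPEB proteins bind U-rich elements in 3′UTRs, so the sites are shown of the 7 members that held a motif and were high enough to test. The motifs were searched on the sense strand of the longest annotated 3′UTR of each gene (GENCODE vM21, GRCm38). They were UUUUAU, held by 53.6% of all 3′UTRs, UUUUAAAU, held by 17.1%, UUUUAAGU, held by 8.88%, UUUUACU, held by 18.6%, and UUUUCAU, held by 23.4%. The site nearest to the 3′ end is in capitals within 30 bases of RNA.
Rnf2, chr1:151469433-151469462, minus strand: gaauguauguguUUUUAUcugucuauggga
Bmi1, chr2:18686386-18686415, plus strand: cuuuucucgaggUUUUCAUgguguuaccua
Suz12, chr11:80033856-80033885, plus strand: guugaguaaacuUUUUAUgucaucuuauaa
Ezh2, chr6:47530369-47530398, minus strand: uuaaaaucaacuUUUUAUugccuucucacc
Eed, chr7:89954703-89954732, minus strand: aagcuguguuauUUUUAUugugauggaaac
Jarid2, chr13:44921021-44921050, plus strand: ccuguaaauugUUUUAAAUacuugagccuu
Pcgf6, chr19:47033740-47033769, minus strand: cuaaaauacauaUUUUAUagacuucauagc
*Bmi1* held 10 of these motifs in a 3′UTR of 2148 bases, *Rnf2* held 6 in 1911 bases, and *Suz12* held 6 in 1933 bases. *Ezh2*, *Eed*, *Jarid2*, *Ring1* and *Pcgf6* held 1 each. *Pcgf1*, whose 3′UTR has 98 bases, and *Ezh1*, with 1824 bases, held 0. Of 16978 genes with an annotated 3′UTR, 63.3% held at least 1, at a median 3′UTR length of 1038 bases. A match in the letters is a description and not a binding site.

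The libraries and their labels were examined first. The depth, estimated from the steps between low values, was 17.2 to 23.6 M fragments (M, mega) per library, with a median of 19.7 M. *Cpeb3* was not lower in the libraries labelled KO. In MII oocytes it lay between 0.045 and 0.101 FPKM (fragments per kilobase of exon and mega-fragment of the library) in Het and between 0.131 and 0.215 FPKM in KO libraries (two-sided exact permutation test, p = 0.00794). In 2cell embryos it lay between 0.0204 and 0.0566 in Het and between 0.0362 and 0.0633 FPKM in KO libraries (p = 0.0317, exact permutation test), and this p rose to as much as 0.0714 when 1 library was left out, over 0.05 in 7 of 9 such tests. *Cpeb3* rested on an estimated 3 to 36 fragments per library, where 3 fragments amount to 0.0205 FPKM at the median depth. FPKM over the whole gene does not show whether the deleted exons were read, so every genotype below is that of the label. The summed level of 8 oocyte markers was 601 to 970 FPKM in MII and 120 to 212 FPKM in 2cell libraries, that of 7 markers of the 2cell stage was 6.07 to 26.96 and 291 to 612 FPKM. The 8 cumulus cell markers in the table summed to at most 1.11 FPKM in any library. The blood markers in the table, *Hba-a1* and *Hba-a2*, summed to at most 0.428 FPKM in MII and to 46.2 to 146 FPKM in 2cell libraries. The summed oocyte markers did not overlap between genotypes in MII oocytes, with 762 to 970 FPKM in Het and 601 to 703 FPKM in KO libraries. Most of this gap was *Mos*, a kinase of the meiotic arrest, at 214 ± 47.8 FPKM in Het and 67.5 ± 12.3 FPKM in KO (SD, n = 5 each), the 1 oocyte marker called of 8 tested, while *Zp1*, *Zp3* and *Npm2* had higher means in KO. Those of the 2cell stage did not overlap in MII oocytes either, with 6.07 to 10.6 FPKM in Het and 14.4 to 26.96 FPKM in KO libraries. That gap was *Zscan4c*, at a mean of 0.544 FPKM in Het and 3.37 FPKM in KO, and *Zscan4d*, at 1.15 and 9.88 FPKM, the 2 called of 4 tested. *Tcstv3* was at 5.85 and 6.64 FPKM and *Gm8300* at 0.124 FPKM in both. In 2cell embryos all 4 marker sums overlapped between the genotypes, but *Gdf9*, a growth factor of the oocyte, was called higher in KO (0.59 on the log2 scale, adjusted p = 0.0109), and *Oosp1* (-0.66, adjusted p = 0.0287), *Zscan4d* (-0.99, adjusted p = 0.0438) and the cumulus marker *Tnfaip6* (-0.98, adjusted p = 0.0162) were called lower. Their part in the results below was not tested.

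Between genotypes, differences followed the GC content of the exons (Pearson r = 0.315 over 10442 genes in MII oocytes and 0.360 over 13932 genes in 2cell embryos, across genes that share their libraries). Genes called higher in KO 2cell embryos had a median GC content of 53.7% and those called lower 44.2%. For the members and the other Polycomb genes called, the differences between genotypes are therefore given also with the GC trend of each library removed. A gene was called when its adjusted p was under 0.05 and its difference over 1.5-fold, in limma on log2(FPKM + 0.1) after scaling by trimmed means, and all log2 differences below are on that scale. Single FPKM values, and whether groups of libraries overlap, are on the values as deposited. Overlap was not judged after scaling, which can change narrow gaps.

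Within MII oocytes of Het females the members spanned a wide range of levels per exon length. *Pcgf1* was the highest at 189 ± 10.2 FPKM (SD, n = 5), followed by *Bmi1* at 30.01 ± 1.75, *Pcgf6* at 14.9 ± 0.648, *Eed* at 8.22 ± 0.274 and *Suz12* at 7.96 ± 0.36 FPKM. The levels of *Eed* and *Suz12* overlapped. *Ezh2* stood at 5.31 ± 0.33, *Rnf2* at 2.42 ± 0.325, *Ezh1* at 1.19 ± 0.0789 and *Jarid2* at 0.383 ± 0.0584 FPKM. *Pcgf1* exceeded 99.7% of all genes in the table, whereas *Jarid2* exceeded 74.2%. Over all libraries *Jarid2* rested on an estimated 31 to 98 fragments, *Rnf2* on 127 to 307 and *Pcgf1* on 579 to 7875, so the low members are measured with less precision. *Ring1*, the paralog of *Rnf2*, was listed at 0 in 9 of 10 MII libraries and at 0.0126 FPKM in the other one. In 2cell embryos *Ring1* lay between 0 and 0.147 FPKM, where 3 fragments amount to 0.0469 FPKM at the median depth, and it was not tested in any comparison.

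**Figure D1:**
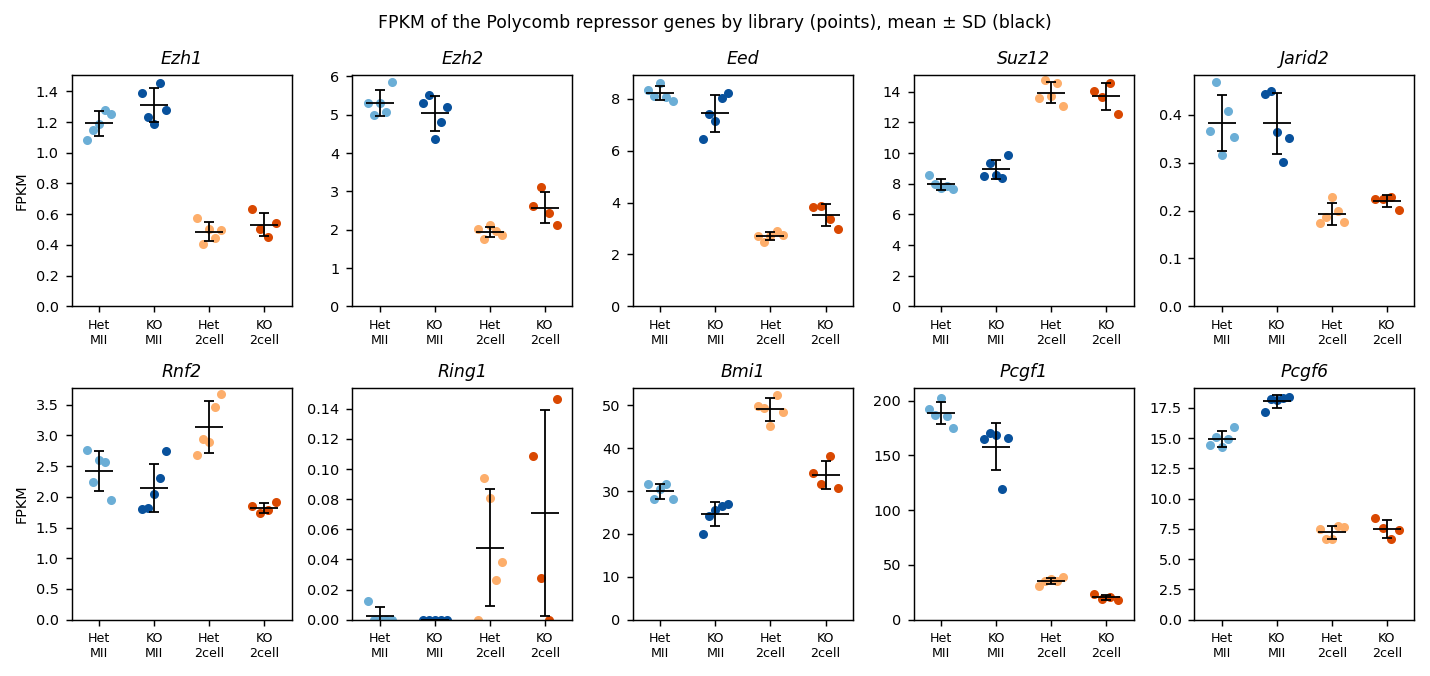
FPKM of the 10 Polycomb repressor genes (vertical axis, from 0) in each library (points) by genotype and stage, with mean and SD in black (n = 5, and 4 for KO 2cell). *Pcgf1*, *Rnf2* and *Bmi1* are lower in KO than in Het 2cell libraries without overlap, and *Ezh2* and *Eed* are higher without overlap.

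The comparison of genotypes in MII oocytes asked how the transcripts stored for the embryo differed in oocytes labelled KO. Of 9 members tested, 0 were called, while 12.9% of 10513 genes were called, 5.71% higher and 7.17% lower in KO. At an unadjusted p under 0.05 there were 3 of the 9, against 37.1% of all genes tested. The members had a median log2 difference of -0.17, against 0.02 over all genes tested. In 3 of 9 members the libraries of Het and KO did not overlap, as was the case for 16.3% of genes. These were *Bmi1*, *Pcgf1* and *Pcgf6*, all Pcgf subunits of PRC1.

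*Bmi1* was at 31.5, 28.2, 30.4, 31.8 and 28.2 FPKM in the Het MII libraries and at 20.1, 24.3, 25.7, 26.6 and 26.9 FPKM in the KO ones. Each KO library lay under each Het library, with a log2 difference of -0.38 (SE 0.12, adjusted p = 0.0493, 1.30-fold). With the GC trend removed the difference was -0.13 (adjusted p = 0.167). *Pcgf1*, the Pcgf subunit of the variant complex with Kdm2b, was at 193, 187, 203, 186 and 175 FPKM in Het and at 165, 171, 169, 120 and 166 FPKM in KO MII libraries. All KO values lay under the Het values, with KO replicate D the lowest, and the log2 difference was -0.36 (SE 0.12, adjusted p = 0.0515), or -0.45 (adjusted p = 0.0317) with the GC trend removed. *Pcgf6* was at 14.5, 15.1, 14.2, 14.9 and 15.9 FPKM in Het and at 17.1, 18.2, 18.1, 18.3 and 18.4 FPKM in KO MII libraries. Here every KO library was above every Het library in FPKM as deposited. After scaling the log2 difference was 0.18 (SE 0.071, adjusted p = 0.0902), or 0.28 (adjusted p = 0.00777) with the GC trend removed. With libraries scaled to the sum of FPKM, *Bmi1* and *Pcgf1* differed by -0.21 and -0.19 (adjusted p = 0.151 and 0.159). *Pcgf6* then differed by 0.35 (adjusted p = 0.00718), and the median of all genes moved to 0.15. All of these stayed under 1.5-fold. *Pcgf6* lies on chromosome 19, 9.83 Mb from *Cpeb3*.

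The PRC2 members overlapped between the genotypes in MII oocytes. Their log2 differences were 0.04 for *Ezh1*, -0.17 for *Ezh2*, -0.24 for *Eed*, 0.07 for *Suz12* and -0.08 for *Jarid2*, with adjusted p from 0.143 to 0.784. The interval for *Suz12*, the scaffold of the complex, ran from -0.13 to 0.28, and that for *Eed*, which binds H3K27me3 and stimulates the enzyme, from -0.48 to 0.01. With the GC trend removed *Suz12* differed by 0.28 (adjusted p = 0.0186), under 1.5-fold, and the values of the others were -0.06 for *Ezh1*, -0.06 for *Ezh2*, -0.22 for *Eed* and -0.08 for *Jarid2* (adjusted p from 0.146 to 0.693). *Rnf2*, the ligase of PRC1, differed by -0.27 (SE 0.17, adjusted p = 0.266), and by -0.0032 (adjusted p = 0.985) with the GC trend removed.

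In 2cell embryos the comparison asked how embryos from oocytes labelled KO differed. *Pcgf1* and *Rnf2* were lower in KO, and *Bmi1* was lower by an adjusted p under 0.05 but under 1.5-fold. *Ezh2* and *Eed* had higher values in KO that did not pass. Of 9 members tested 2 were called, 0 higher and 2 lower, in a comparison that called 18.1% of 14049 genes, 9.11% higher and 8.94% lower. The libraries did not overlap for 5 of 9 members and for 20.0% of all genes tested. The median log2 difference of the members was 0.04, against 0.02 over all genes tested.

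*Pcgf1* was at 30.9, 35.4, 37.2, 34.98 and 38.6 FPKM in Het and at 23.7, 19.2, 20.3 and 18.3 FPKM in KO 2cell libraries. All KO libraries were under all Het libraries. The log2 difference was -0.81 (SE 0.10, adjusted p = 0.00181), that is 1.76-fold, and -0.89 (adjusted p = 0.00176) with the GC trend removed. *Pcgf1* (chr6:83077869-83080856, plus strand) has a GC content of 50.9%, above the median of 48.6% over all genes tested. It was called in 9 of 9 fits that left out 1 library, with log2 differences from -0.87 to -0.76. With libraries scaled by their sums of FPKM the difference was -0.50 (adjusted p = 0.0154), under 1.5-fold.

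*Rnf2*, which catalyses the ubiquitination of H2A, was at 2.69, 2.94, 2.90, 3.47 and 3.68 FPKM in Het and at 1.84, 1.74, 1.78 and 1.91 FPKM in KO 2cell libraries. The KO libraries lay close together and below every Het library. The log2 difference was -0.76 (SE 0.13, adjusted p = 0.0046), and it was also called in 9 of 9 fits without 1 library. *Rnf2* (chr1:151458004-151500956, minus strand) has a GC content of 39.5%. With the GC trend removed its difference was -0.37 (SE 0.12, adjusted p = 0.0698), and with libraries scaled to the sum of FPKM it was -0.46 (adjusted p = 0.0302), so neither gave a call. The last 158 bases of the *Rnf2* gene, at chr1:151458004-151458161, overlap *Trmt1l* on the opposite strand. The strand setting of the counting was not given. The 3′UTR site shown above lies elsewhere, at chr1:151469433-151469462. *Gm36527* lies within the span of *Rnf2* on the same strand over 3029 bases. Spans of whole genes were compared, introns included, and overlap of exons was not examined.

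*Bmi1* was at 49.8, 49.4, 45.1, 52.5 and 48.5 FPKM in Het and at 34.2, 31.8, 38.1 and 30.7 FPKM in KO 2cell libraries. The ranges did not overlap, and the log2 difference was -0.56 (SE 0.11, adjusted p = 0.00794), at 1.48-fold. *Bmi1* (chr2:18677018-18686630, plus strand) has a GC content of 40.2%, and it differed by -0.20 (adjusted p = 0.181) once the GC trend was removed. With libraries scaled to the sum of FPKM it differed by -0.25 (adjusted p = 0.119).

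*Ezh2*, the main H3K27 methyltransferase, was at 2.01, 1.75, 2.12, 1.97 and 1.87 FPKM in Het and at 2.61, 3.11, 2.44 and 2.13 FPKM in KO 2cell libraries. *Eed* was at 2.73, 2.48, 2.73, 2.92 and 2.76 FPKM in Het and at 3.82, 3.89, 3.39 and 2.995 FPKM in KO 2cell libraries. In both genes the lowest KO library was above the highest Het library by a narrow margin, in FPKM as deposited. The log2 differences were 0.36 (SE 0.14, adjusted p = 0.103) for *Ezh2* and 0.34 (SE 0.12, adjusted p = 0.0823) for *Eed*. With the GC trend removed *Ezh2* differed by 0.52 (adjusted p = 0.0309) and *Eed* by 0.39 (adjusted p = 0.0511), both under 1.5-fold. With libraries scaled to the sum of FPKM both were called, at 0.66 (adjusted p = 0.0221) and 0.64 (adjusted p = 0.0136). That scaling moved the median difference of all genes to 0.26. Other genes are annotated on the opposite strand within the spans of *Ezh2* (*Gm26625* and *Gm44282*), *Suz12* (*Gm26563*), *Eed* (*E230029C05Rik*) and *Jarid2* (*Gm22213*). *Gm26563* overlaps over 12515 bases, more than the 4945 exon bases of *Suz12*, so it lies partly in introns. *Gm45120* lies within the span of *Eed* on the same strand over 408 bases. Overlap of exons was not examined, so whether the reads of these genes mix was not tested.

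The other members overlapped between the genotypes in 2cell embryos. *Suz12* differed by -0.04 (interval -0.27 to 0.18), *Pcgf6* by 0.04 (interval -0.22 to 0.29), *Ezh1* by 0.09 (interval -0.27 to 0.45) and *Jarid2* by 0.12 (interval -0.21 to 0.44). *Suz12* was at 13.9 ± 0.704 FPKM in Het and at 13.7 ± 0.857 FPKM in KO 2cell libraries. With the GC trend removed the difference of *Suz12* turned to 0.26 (interval 0.04 to 0.47, adjusted p = 0.104) and that of *Ezh1* to -0.0031 (adjusted p = 0.992), and *Pcgf6* and *Jarid2* differed by 0.19 and 0.15 (adjusted p = 0.284 and 0.517).

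**Figure D2:**
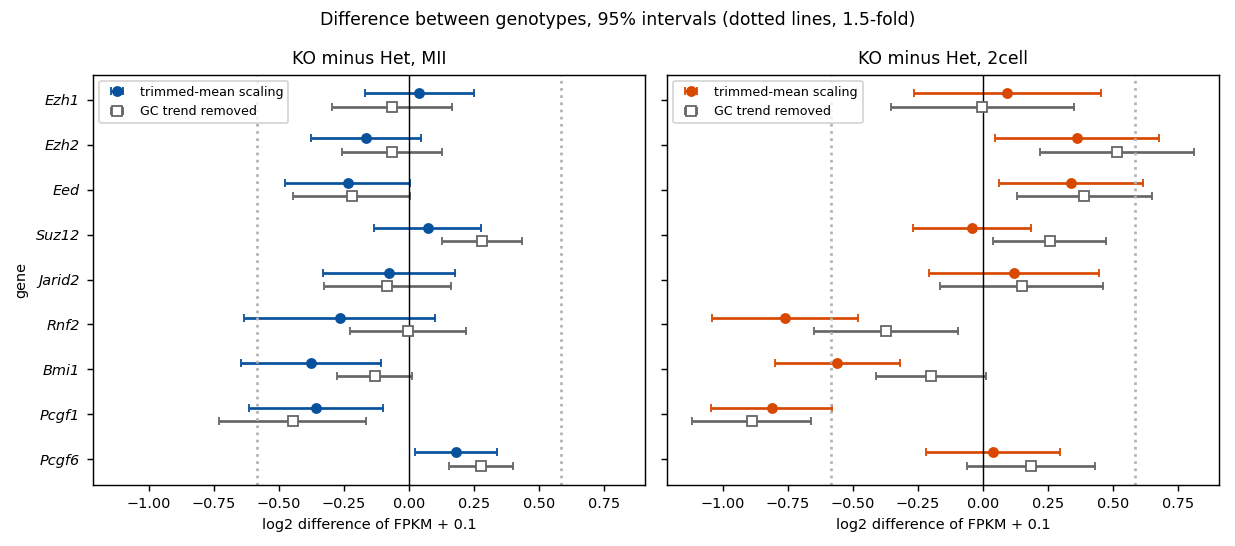
Log2 difference of KO minus Het (horizontal axis, FPKM + 0.1) for the 9 members tested in MII oocytes and 2cell embryos, with 95% intervals, scaled by trimmed means (filled circles) and with the GC trend of each library removed (open squares). In 2cell embryos *Pcgf1* stays beyond the dotted 1.5-fold line, at -0.81 and -0.89, while *Rnf2* moves from -0.76 to -0.37 and *Bmi1* from -0.56 to -0.20.

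**Figure D3:**
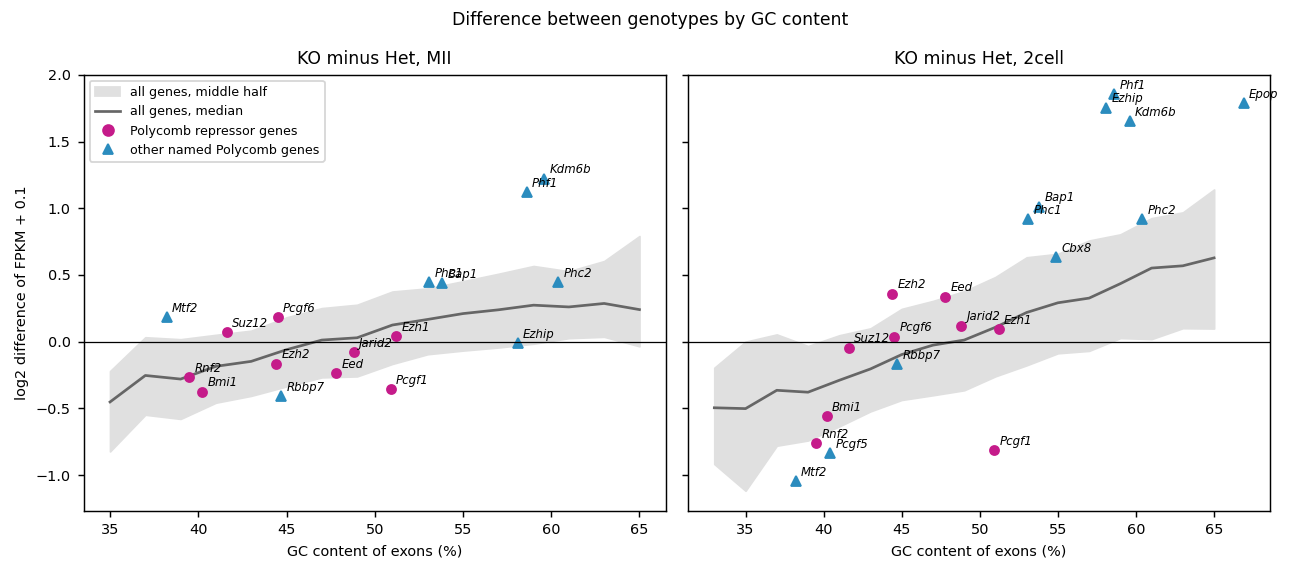
Log2 difference of KO minus Het (vertical axis, FPKM + 0.1) against the GC content of exons for the members (circles) and the other named Polycomb genes (triangles), with the median (line) and the interquartile range (shaded) of all genes in bins of GC content. In 2cell embryos *Rnf2* and *Bmi1* lie at a GC content of 39.5% and 40.2%, where the median of all genes is below 0, and *Pcgf1* lies far under the line at 50.9%.

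From MII to 2cell most members fell, in a transition that called 65.4% of 15784 genes in Het, 42.4% higher and 23.0% lower. The calls higher in 2cell embryos made up 64.9% of all calls in Het and 64.0% in KO, but 45.6% and 48.8% when libraries were scaled to the sum of FPKM. Of 9 members tested in Het, 8 were called, with 6 lower and 2 higher. *Pcgf1* fell most, from 189 ± 10.2 to 35.4 ± 2.93 FPKM (SD, n = 5 each), a log2 difference of -2.34 (SE 0.10). *Eed* fell by 1.48 and *Ezh2* by 1.33 on the log2 scale, *Ezh1* by 1.08, *Pcgf6* by 0.96 and *Jarid2* by 0.66, with adjusted p of at most 1.7e-05. These were also lower when libraries were scaled to the sum of FPKM. With a pseudocount of 1 *Ezh1* and *Jarid2* fell by 0.53 and 0.197, under 1.5-fold. The median of the members was -0.96, against 0.41 over all genes tested.

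*Suz12* and *Bmi1* rose in Het, by 0.88 (SE 0.083) and 0.79 (SE 0.10) on the log2 scale, but with libraries scaled to the sum of FPKM the differences were 0.02 and -0.08. That scaling moved the median of all genes from 0.41 to -0.17. *Rnf2* had a log2 difference of 0.43 (SE 0.14, adjusted p = 0.00786), under 1.5-fold, and of -0.40 (adjusted p = 0.00867) when libraries were scaled to the sum of FPKM, whereas it was called higher at 0.60 (adjusted p = 4e-05) once the GC trend was removed. The order of levels changed with the stage, so that *Bmi1* at 49.1 ± 2.67 FPKM stood above *Pcgf1* in Het 2cell embryos.

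In KO the transition called 64.7% of the same genes, 41.4% higher and 23.3% lower, and 6 of 9 members were called, with 5 lower and 1 higher. *Pcgf1* fell by 2.86, *Pcgf6* by 1.18, *Ezh1* by 1.09, *Eed* by 0.98 and *Ezh2* by 0.87 on the log2 scale, and *Suz12* rose by 0.69, or 0.04 with libraries scaled to the sum of FPKM. *Jarid2* at -0.52, *Bmi1* at 0.53 and *Rnf2* at -0.13 were not called. Scaling to the sum of FPKM, which moved the median of all genes from 0.37 to -0.07, called *Jarid2* and *Rnf2* lower, at -1.02 and -0.76 (adjusted p = 7.4e-07 and 6.4e-05), and turned *Bmi1* to -0.12 (adjusted p = 0.289). Removal of the GC trend called *Bmi1* higher at 0.89 (adjusted p = 7.4e-09), turned *Rnf2* to 0.20 (adjusted p = 0.104) and left *Ezh2* at -0.58 (adjusted p = 7.6e-05), just under 1.5-fold. *Ezh1* stood at -0.55, also under 1.5-fold, with a pseudocount of 1.

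**Figure D4:**
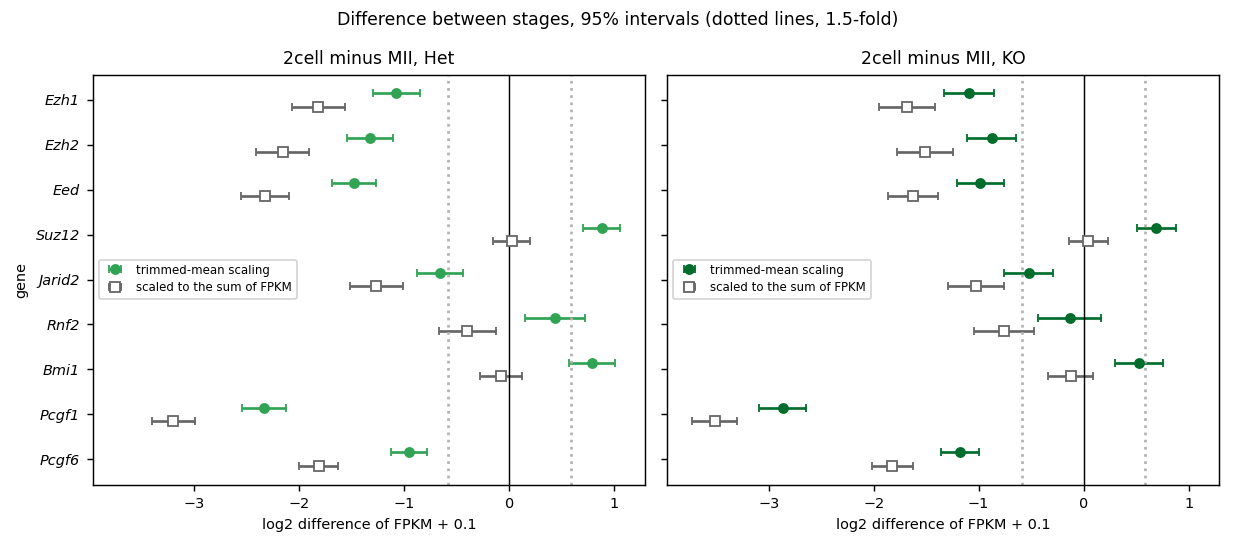
Log2 difference of 2cell minus MII (horizontal axis, FPKM + 0.1) for the 9 members tested in Het and KO, with 95% intervals, scaled by trimmed means (filled circles) and to the sum of FPKM (open squares). *Pcgf1* is the lowest in both genotypes, at -2.34 and -2.86, and *Suz12* and *Bmi1* lie near 0 under the second scaling.

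The interaction asked whether the change from MII to 2cell differed between the genotypes. Of 9 members tested, 0 passed both limits, while 8.60% of 15784 genes did, 3.36% higher and 5.24% lower. At an adjusted p under 0.05 alone there were 2 of the 9, 1 higher and 1 lower, against 3.49% and 5.51% of all genes tested. *Pcgf1* fell further in KO by 0.53 on the log2 scale (SE 0.15, adjusted p = 0.0303). *Eed* fell less, by a difference of 0.50 (SE 0.15, adjusted p = 0.039). *Ezh2* at 0.45 (adjusted p = 0.0743) and *Rnf2* at -0.57 (adjusted p = 0.0831) did not pass. With the GC trend removed the differences were -0.54 for *Pcgf1* (adjusted p = 0.0327), 0.54 for *Eed* (adjusted p = 0.0196), 0.52 for *Ezh2* (adjusted p = 0.0319) and -0.40 for *Rnf2* (adjusted p = 0.111). With libraries scaled to the sum of FPKM, *Eed* and *Ezh2* were called, at 0.70 (adjusted p = 0.011) and 0.65 (adjusted p = 0.0302), whereas *Pcgf1* and *Rnf2* differed by -0.31 (adjusted p = 0.184) and -0.35 (adjusted p = 0.266). That scaling moved the median of all genes from -0.02 to 0.12 and the share of calls that were higher from 39.1% to 65.7%.

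The proportion of the paralogs within PRC2 was compared as the ratio of *Ezh1* to *Ezh2*. It was 0.225 ± 0.0177 in Het and 0.261 ± 0.0298 in KO MII libraries, and 0.25 ± 0.0253 in Het and 0.211 ± 0.0447 in KO 2cell libraries. The ranges overlapped in each of the 4 comparisons of genotype or stage. Two-sided exact permutation tests of the log2 ratio gave p of 0.0556 and 0.19 between genotypes in MII and 2cell, and 0.103 and 0.111 between stages in Het and KO, with adjusted p of 0.148 to 0.19. The ratio of *Ring1* to *Rnf2* was not formed, since *Ring1* was at 0 in 11 of 19 libraries.

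Other Polycomb genes were examined in lists of 8 PRC2 partners, 21 PRC1 partners, 7 genes that remove the marks and 6 genes silenced by maternal H3K27me3. In MII oocytes 1 of 7 tested PRC2 partners, 0 of 11 PRC1 partners and 1 of 6 genes of mark removal were called, all higher in KO, beside 12.9% of all genes, with 5.71% higher. In 2cell embryos 4 of 7 PRC2 partners were called, 3 higher and 1 lower, 3 of 14 PRC1 partners, 2 higher and 1 lower, and 2 of 5 genes of mark removal, both higher. Over all genes 18.1% were called, 9.11% higher and 8.94% lower, so that the share of the PRC1 partners was near that of all genes. The median log2 differences in 2cell embryos were -0.17, 0.38 and 0.50, against 0.02 over all genes tested. With the GC trend removed 1825 of 13932 genes were called in 2cell embryos, but not *Mtf2*, *Epop*, *Phc1*, *Phc2* or *Pcgf5*. The lists were chosen with earlier results of these data known. Of the genes silenced by maternal H3K27me3 1 was high enough to test, and it was not called.

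*AU022751*, also named *Ezhip*, encodes an inhibitor of PRC2 that acts on Ezh2. It stood at 238 to 255 FPKM in Het and 192 to 317 FPKM in KO MII libraries, and in each of these libraries above every member. In 2cell embryos it was at 60.9, 28.0, 63.0, 37.7 and 29.8 FPKM in Het and at 138, 199.99, 146 and 99.2 FPKM in KO libraries. Every KO 2cell library was above every Het 2cell library, by a log2 difference of 1.75 (SE 0.30, adjusted p = 0.00539), or 1.399 (adjusted p = 0.0191) with the GC trend removed. It fell by 2.47 from MII to 2cell in Het and by 0.78 in KO on the log2 scale, and this difference passed the test of interaction (1.69, SE 0.32, adjusted p = 0.0036), as it did with the GC trend removed (1.505, adjusted p = 0.0101).

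*Phf1* and *Mtf2*, which tie PRC2 to chromatin, differed in opposite directions. *Phf1* was at 2.51, 2.26, 4.51, 2.85 and 2.44 FPKM in Het and at 9.17, 9.66, 10.9 and 13.0 FPKM in KO 2cell libraries, a log2 difference of 1.85 (SE 0.20, adjusted p = 0.00111), or 1.48 (adjusted p = 0.00176) with the GC trend removed. It was higher in KO MII oocytes too, by 1.12 (SE 0.28, adjusted p = 0.0186), or 0.87 (adjusted p = 0.0132) with the GC trend removed, although the values of 2.05 to 5.68 FPKM in Het and 5.03 to 11.3 FPKM in KO overlapped. *Mtf2* was at 1.63, 2.06, 2.62, 3.25 and 3.54 FPKM in Het and at 1.71, 1.27, 0.817 and 1.09 FPKM in KO 2cell libraries, and the groups overlapped by 1 library each. Its log2 difference was -1.05 (SE 0.25, adjusted p = 0.0178), and -0.61 (adjusted p = 0.133) with the GC trend removed. *Epop*, an inhibitory partner of PRC2, differed by 1.79 in 2cell embryos (SE 0.55, adjusted p = 0.0479), and by 1.20 (adjusted p = 0.129) with the GC trend removed. Its values of 0.14 to 1.53 FPKM in Het and 1.42 to 3.83 FPKM in KO overlapped, and it was called in 2 of 9 fits that left out 1 library, those without Het replicate B or C, with adjusted p up to 0.125 in the others.

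Among the PRC1 partners, *Phc1* and *Phc2* of the canonical complex were higher in KO 2cell embryos, at log2 differences of 0.92 and 0.92 (adjusted p = 0.0337 and 0.0149). They differed by 0.73 and 0.48, with adjusted p of 0.0815 and 0.0839, once the GC trend was removed. *Phc2* was called in 9 of 9 fits that left out 1 library, and *Phc1* in 2 of 9, those without Het replicate B or KO replicate C, with adjusted p up to 0.0906 in the others. *Pcgf5*, a paralog of *Pcgf1*, was at 0.421, 0.544, 0.372, 0.486 and 0.617 FPKM in Het and at 0.219, 0.218, 0.23 and 0.248 FPKM in KO 2cell libraries. It was lower in KO by 0.84 on the log2 scale (SE 0.17, adjusted p = 0.0104), and differed by -0.48 (adjusted p = 0.0722) with the GC trend removed. *Pcgf5* lies 0.56 Mb from *Cpeb3* on chromosome 19.

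Genes that remove the marks included *Kdm6b*, a demethylase of H3K27me3, and *Bap1*, which takes ubiquitin off H2A. *Kdm6b* was at 0.699, 1.24, 2.07, 1.46 and 1.14 FPKM in Het and at 3.503, 3.86, 4.04 and 5.65 FPKM in KO 2cell libraries. Its log2 difference was 1.65 (SE 0.26, adjusted p = 0.0038), and 1.25 (adjusted p = 0.00802) with the GC trend removed. In MII oocytes it was higher in KO by 1.22 (SE 0.33, adjusted p = 0.0265), or 0.96 (adjusted p = 0.0194) with the GC trend removed, and the call was lost without Het replicate A, C or D or KO replicate B or C (adjusted p up to 0.067), that is in 5 of 10 fits. *Bap1* was higher in KO 2cell embryos by 1.01 (SE 0.21, adjusted p = 0.00955), and by 0.80 (adjusted p = 0.0269) with the GC trend removed.

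**Figure D5:**
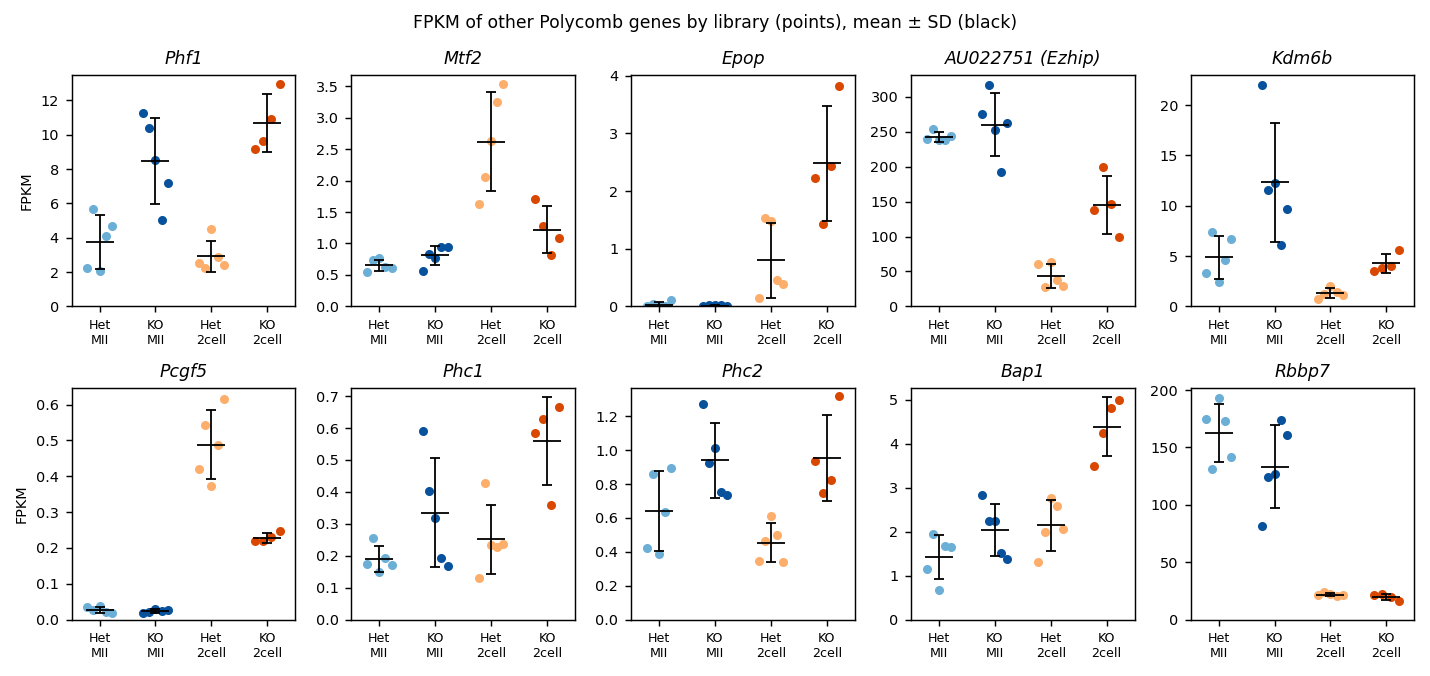
FPKM of 10 other Polycomb genes (vertical axis, from 0) in each library (points) by genotype and stage, with mean and SD in black (n = 5, and 4 for KO 2cell). *AU022751* falls from MII to 2cell in both genotypes and is at 99.2 to 199.99 FPKM in KO and 28.0 to 63.0 FPKM in Het 2cell libraries.

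In the stage comparison in Het, *Cbx8* and *Epop* were the largest rises among the called genes of these lists, at 2.88 and 2.55 on the log2 scale, and *Rbbp7*, a histone-binding subunit of PRC2, and *AU022751* were the largest falls, at -2.80 and -2.47. *Epop* was listed at 0 in 3 and *Cbx8* in 2 of the 5 Het MII libraries, so the size of these rises depends on the pseudocount. With a pseudocount of 1 they were 0.83 for *Cbx8* and 0.75 for *Epop*, under the 1.15 of *Mtf2*, which was at 1.88 with the pseudocount of 0.1.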

How the data were processed

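The table was deposited under a name for raw counts, but the values the authors deposited are FPKM, with 10 of 384651 values above 0 exactly whole. According to the methods and labels, the authors trimmed reads with Trim Galore 0.4.1, mapped them to GRCm38 with HISAT2 2.0.5 and computed FPKM in SeqMonk. The kit primes poly(A), so tail length can affect capture. Members and lists were chosen with earlier results of these data known. FPKM were scaled by unweighted trimmed means of log ratios (30% and 5% trimmed). Genes with 0.1 FPKM in at least 5 MII or 4 2cell libraries (4 of 19 for stage and interaction) were tested by limma 3.58.1 under R 4.3.3, on log2(FPKM + 0.1), with a variance trend and Benjamini-Hochberg adjustment. The GC correction removed a loess trend (span 0.5). Nothing says that libraries are separate animals, so p-values measure the spread between libraries. Named are all members, list genes called between genotypes, the 2 largest rises and falls in the Het stage comparison, and *Cpeb3*. The list of PRC1 partners was left short of 1 gene, which is not reported here. There were 0 columns of values not used. Code was tested on simulated data. Permutation tests used scipy 1.17.1.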

Additional observations from a re-analysis of the deposited data

Results flagged for a closer look

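Among 88 groups of libraries, 6 had 1 library apart from the others by Dixon's ratio of gap to range (above 0.829 in groups of 4, above 0.71 in groups of 5), and chance gives about 1 in 20. *Pcgf1* was at 120 FPKM in KO MII replicate D, against 165 to 171 in the others, and *Pcgf6* at 17.1 FPKM in KO MII replicate A, against 18.1 to 18.4. *Ring1* was at 0.0126 FPKM in Het MII replicate A and at 0 in the others. This is under the 0.0469 FPKM of 3 fragments, and with all others at 0 any value is flagged. *Phf1* was at 4.51 FPKM in Het 2cell replicate C, against 2.26 to 2.85. *Cpeb3* was at 0.0566 FPKM in Het 2cell replicate D, against 0.0204 to 0.0265, and at 0.0362 FPKM in KO 2cell replicate B, against 0.0599 to 0.0633.

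The change from MII to 2cell differed between the genotypes, by limma's test of interaction, for *Eed* (0.50 on the log2 scale) and *Pcgf1* (-0.53), both under 1.5-fold, and for *AU022751* (1.69), *Mtf2* (-1.30) and *Pcgf5* (-0.80). *Pcgf5* was at 0.0177 to 0.0379 FPKM in the MII libraries, too low to test there, so its value rests on the 2cell libraries, and it was under 1.5-fold with libraries scaled to the sum of FPKM (-0.53) and with a pseudocount of 1 (-0.28). The differences of *Mtf2* and *Pcgf5* were -1.11 (adjusted p = 0.0197) and -0.65 (adjusted p = 0.0147) with the GC trend removed.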

How the results depend on the processing

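Of the members called between genotypes in 2cell embryos (2), 1 was called with a pseudocount of 1 (*Pcgf1*) and 1 with the GC trend removed, where *Rnf2* lost its call. Over all genes these settings called 1161 of 14049 and 1825 of 13932. With the replicate letter as a block 0 were called, and 0 with block and GC trend removed. In that last fit 0 of 13932 genes were called, and in the block alone 381 against 2536. The same letters did not mark pairs of libraries, with correlations of deviations from -0.148 to 0.097. In MII oocytes 1 member was called without a fold threshold, beside 2255 of 10513 genes. Of the interaction, 2 were called when libraries were scaled to the sum of FPKM (*Eed* and *Ezh2*) and 2 without a fold threshold (*Eed* and *Pcgf1*). Of 15784 genes, 1221 and 1420 were called in these settings.

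With libraries scaled to the sum of FPKM, *Bmi1* and *Bap1* differed by -0.0791 and -0.1496 between stages in Het and *Mtf2* by -0.0001 in KO. These had been called higher in 2cell embryos and now lay near 0, with adjusted p of at least 0.464, while the median of all genes moved from 0.41 to -0.17 in Het and from 0.37 to -0.07 in KO. That scaling made 69.9% of calls in MII and 80.9% in 2cell higher in KO, against 44.3% and 50.5%. *Cpeb3* in MII libraries differed by 0.53 on the log2 scale, under 1.5-fold. It was called at 0.62 with the sum, and at the same 0.53 where adjusted p was the 1 limit.

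Leaving out 1 library at a time gave 0 to 0 members in MII, 2 to 3 in 2cell, 8 to 8 and 6 to 6 between stages in Het and KO, and 0 to 1 for the interaction (*Pcgf1*, without KO 2cell replicate A or KO MII replicate D). Over all genes these fits called 954 to 1546 of 10751 to 10874 in MII and 1802 to 2557 of 13654 to 14725 in 2cell. Of 15467 to 15730 genes they called 10049 to 10304 between stages in Het, 9826 to 10183 in KO, and 1051 to 1566 for the interaction. The difference of *Cpeb3* was 0.0225 to 0.0317 FPKM in 2cell libraries, with exact permutation p up to 0.0714, over 0.05 in 7 of these 9 tests, all but those without Het replicate D and KO replicate B.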
